A study of Mus musculus with 6 samples.

Results

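The canonical mouse Notch genes on the Affymetrix MOE430A array were 5 ligand genes, Dll3, Dll1, Dll4, Jag1 and Jag2, and 4 receptor genes, Notch1, Notch2, Notch3 and Notch4. All probe sets that the platform's annotation assigns to exactly 1 of these 9 genes were taken, which gave 16 of the 22626 probe sets tested, and 9 of the 12393 genes they name. Dll3 and Dll1 have 1 probe set each, and the other 7 genes have 2 each. No probe set that names several genes included any of them.

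RNA came from mouse embryos of 9.5 days post coitum, from the presomitic mesoderm level, the tail tissue behind the newest somite, cut so that all germ layers were included. One group of 3 pools was wild type on a C57BL/6 background. The other group of 3 pools was homozygous for Dll3tm1Rbe, also written Dll3neo, a targeted allele of Dll3, which the labels place on C57BL/6 as well. The design text calls the pools biological replicates, each was hybridised to 1 array, and how many embryos made up a pool was not given.

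Notch signalling passes between touching cells. Delta-like and Jagged ligands on one cell bind Notch receptors on its neighbour, the receptor is cut, and its intracellular part enters the nucleus to switch on target genes such as those of the Hes and Hey families. In the presomitic mesoderm this signal is part of the segmentation clock that sets the rhythm of somite formation. Dll1 is the main activating ligand there. Dll3 is a divergent family member that is found largely inside the cell and is not known to activate Notch on neighbouring cells, and loss of Dll3 disturbs the vertebral column.

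Every value given as a ratio below is the deposited linear value, which for most probe sets is the signal divided by the probe set's own median over the 6 pools. That holds for all 16 probe sets of the Notch genes. A ratio compares pools for 1 probe set and says nothing about which gene has more transcript. A flat ratio also cannot be told apart from a probe set that reads no transcript at all, since no absolute signal was used here, so the presence of a cell type could not be checked from its defining markers. The median ratio of the 6 arrays lay between 0.985 and 1.01. Wild-type pool 3 stood apart from the other arrays, with an SD of its log2 ratios over all probe sets of 0.303 against 0.166 to 0.234 in the other 5 pools. With 3 pools a genotype, the number of arrays limits the precision of every value.

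The first question was whether the altered gene itself differed between genotypes. The Dll3 ratio was 1.463, 1.633 and 2.007 across wild-type pools 1 to 3. It was 0.480, 0.476 and 0.537 in the Dll3neo/neo pools 1, 2 and 3. All 3 mutant values lay far below all 3 wild-type values, and the mutant pools lay closer to each other than the wild-type pools did. The wild-type mean was 1.70 ± 0.278 and the mutant mean 0.498 ± 0.0341 (SD, n = 3 each). The probe set, 1449236_at, therefore read 29.5% of the wild-type level in the mutant, with a 95% interval of 23.8% to 36.5% from the limma fit. The log2 difference, mutant minus wild type, was -1.76 (SE 0.14, limma adjusted p = 0.00691 over all probe sets).

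Dll3 fell, and it was the 1 probe set of the whole array that passed, 0.00442% of those tested. The call was lost when any of wild-type pool 2 or mutant pools 1, 2 and 3 was left out (limma adjusted p = 0.0757, 0.0924, 0.0699 and 0.0627), with the log2 difference staying between -1.87 and -1.64 over all 6 sets of 5 pools. The call held with quantile normalization, where the difference was -2.38 and so below the 95% interval of -2.07 to -1.45, and on the log2(value + 1) scale, which compresses it to -0.85. The place of this probe set with respect to the targeted stretch of Dll3 could not be looked up, so the drop bears on the labels only as far as the targeted transcript is read by it.

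**Figure D1:**
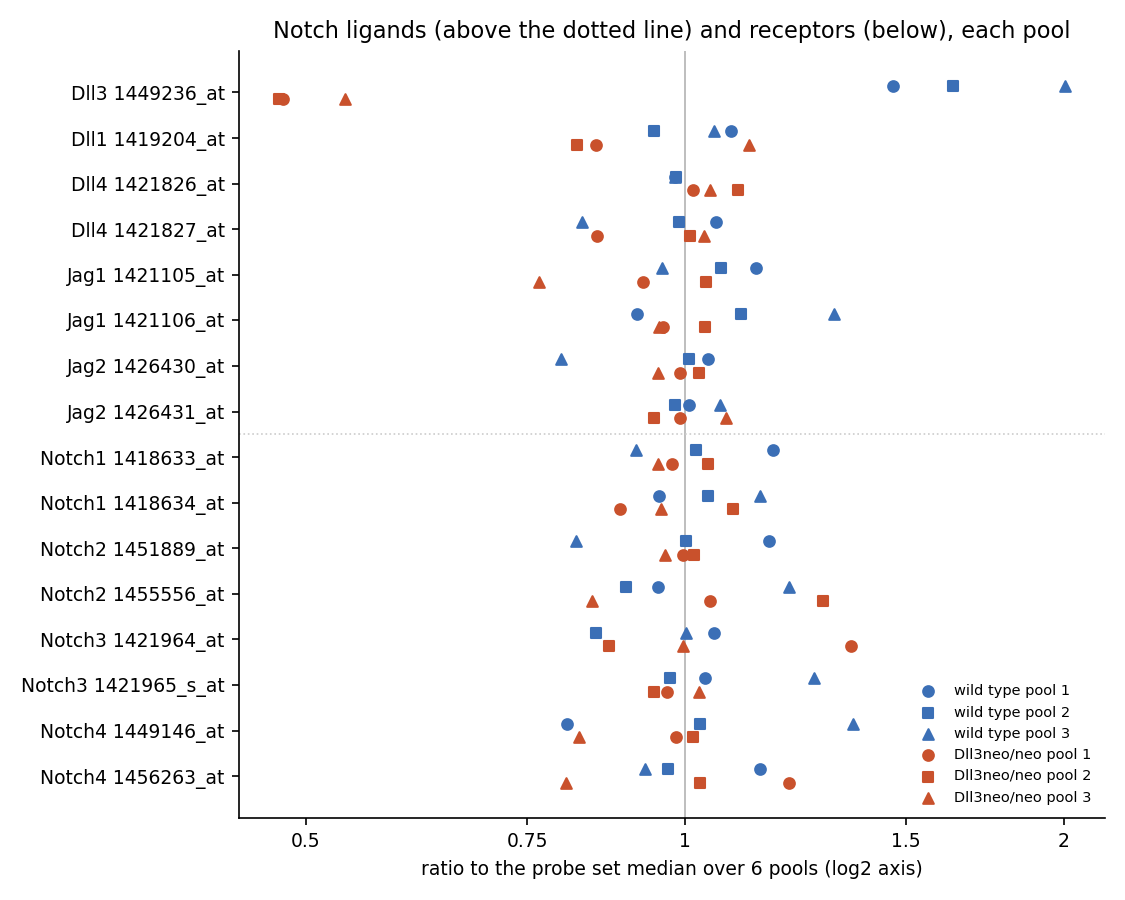
Ratio of each of the 16 probe sets to its own median (log2 axis) in the 3 wild-type pools (blue) and the 3 Dll3neo/neo pools (orange), with the pool number given by the symbol. For Dll3 the mutant pools sit between 0.476 and 0.537 and the wild-type pools between 1.463 and 2.007, while for 14 of the other 15 probe sets the genotypes overlap.

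The second question was whether another ligand or a receptor was higher where Dll3 was low. None of the 15 probe sets of the other 8 genes passed the test in either direction. Their limma adjusted p was 0.9999 throughout, and 0 of them reached an unadjusted p under 0.05 in limma, where 1.16% of all probe sets did. By sign 6 were higher and 9 lower in the mutant, with a median log2 difference of -0.02 beside -0.0021 over all probe sets. Their log2 differences ran from -0.22 to 0.13, so the largest, in Jag1, was a small fraction of that of Dll3. The 95% interval of every one of the 15 differences spanned 0.

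These intervals give the room that the data leave for a higher reading of each probe set. A probe set that reads no transcript would also give a flat ratio. The intervals therefore do not bound the change of the transcript itself. The upper ends ran from 1.07-fold to 1.28-fold for the 7 probe sets of the other ligands, and from 1.10-fold to 1.43-fold for the 8 probe sets of the receptors. The lower ends reached 0.691-fold among the ligands and 0.675-fold among the receptors, so the data leave room for a lower level down to there as well. Each interval is for its own probe set and is not widened for the number of probe sets looked at. With 1 pool left out the largest upper end was 1.58-fold, for Notch3 probe set 1421964_at without mutant pool 2. Since the dissected tissue is a mixture, fewer cells of a type and less RNA per cell cannot be told apart in any of these values.

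**Figure D2:**
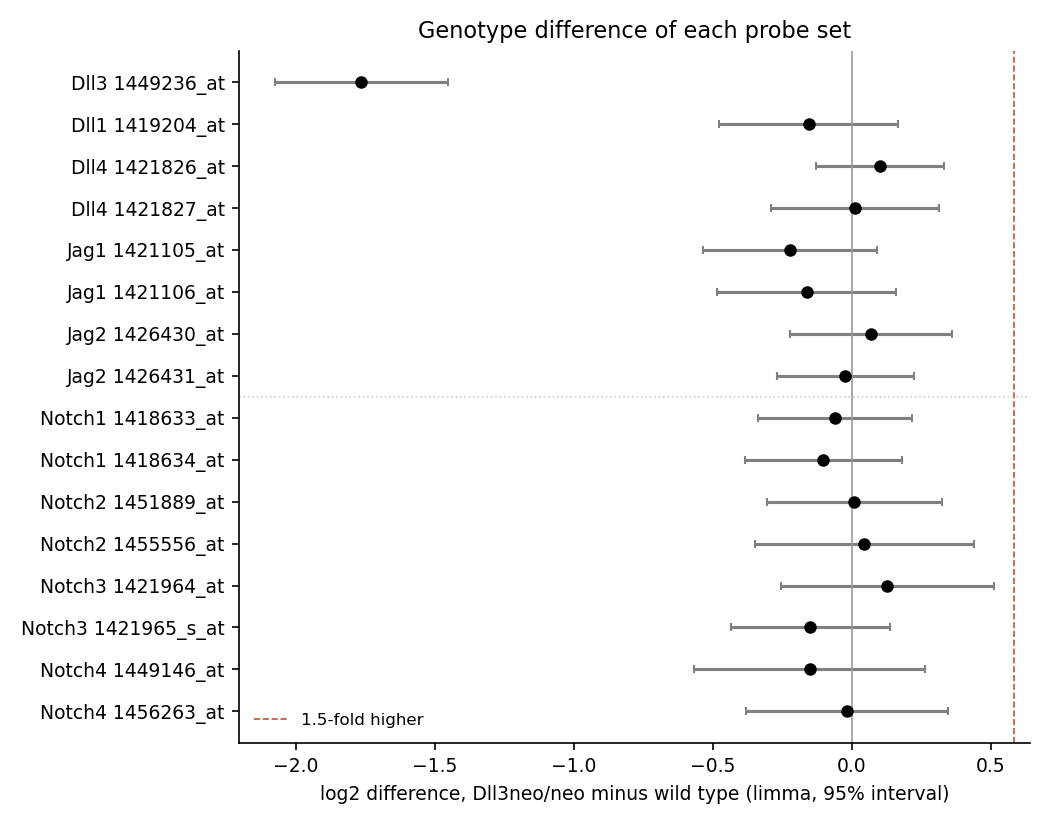
Log2 difference of each probe set, Dll3neo/neo minus wild type, with its 95% interval from limma and a dashed line at 1.5-fold higher. The Dll3 interval lies wholly below 0, and the other 15 intervals span 0 and end below the dashed line.

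Dll1 encodes the Delta-like ligand that activates Notch in the presomitic mesoderm. Its ratio was 1.088, 0.945 and 1.055 across wild-type pools 1 to 3 and 0.851, 0.821 and 1.126 in the mutant pools 1, 2 and 3. Mutant pools 1 and 2 held the lowest values of the 6 and mutant pool 3 held the highest, so the genotypes overlapped. The log2 difference was -0.15 (95% interval -0.48 to 0.17), which became -0.07 when mutant pool 2 was left out and -0.30 when mutant pool 3 was.

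The markers of presomitic mesoderm and tail bud, 14 of 16 listed genes read by 17 probe sets, had pool medians of 0.00, 0.03 and 0.16 across wild-type pools 1 to 3 on the log2 scale. In the mutant pools the medians were -0.10, -0.11 and 0.08. Mutant pool 3 was thus the highest mutant pool for this list and for the ratios of Dll1 and Dll3. Among the wild-type pools the list was highest in pool 3, as was Dll3, but Dll1 was highest in pool 1. The list does not hold Dll1 or Dll3, but it holds Hes7, of the Hes family of Notch targets. Hes7 was lower in every mutant pool than in any wild-type pool (log2 difference -0.43, limma adjusted p = 0.9999). Uncx of the same list went the other way, with overlapping genotypes (log2 difference 0.35, limma adjusted p = 0.9999). By sign 5 of the 17 probe sets were higher and 12 lower, with a median log2 difference of -0.20. The part of tissue makeup in the Dll1 values was not tested.

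Dll1 and Dll3 were also set against each other within each pool. The log2 ratio of Dll1 minus that of Dll3 was -0.43, -0.79 and -0.93 across wild-type pools 1 to 3 and 0.83, 0.79 and 1.07 in the mutant pools. The means were -0.71 ± 0.26 and 0.89 ± 0.15 (SD, n = 3 each), a shift of 1.61, with no overlap between genotypes. The two-sided exact permutation test gave p = 0.10, the smallest that 3 against 3 pools allow. The design can therefore not take this shift past a threshold of 0.05 by permutation. The shift is the Dll3 difference less that of Dll1, so it adds no evidence to the Dll3 result, and it does not say which gene had more transcript.

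Dll4 encodes a ligand best known from the endothelium of growing arteries. Probe set 1421826_at had ratios of 0.982, 0.984 and 0.983 in the wild-type pools and 1.016, 1.102 and 1.048 in the mutant pools 1, 2 and 3. All 3 mutant values lay above all 3 wild-type values, by a log2 difference of 0.10 (95% interval -0.13 to 0.33). The wild-type values of this probe set were closer together than those of any other member, with an SD of 0.001. Of the 16 probe sets, this one and that of Dll3 were the 2 without overlap between genotypes, where 5.03% of all probe sets had none.

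The second Dll4 probe set, 1421827_at, did not show that separation. Its ratios were 1.059, 0.990 and 0.829 across wild-type pools 1 to 3 and 0.852, 1.010 and 1.037 in the mutant pools, and its log2 difference was 0.01 (95% interval -0.29 to 0.32). Endothelium markers, 20 of 20 listed genes read by 36 probe sets, had pool medians of -0.12, 0.01 and -0.04 among the wild-type pools and 0.02, 0.07 and -0.04 in the mutant on the log2 scale. By sign 26 of the 36 probe sets were higher and 10 lower in the mutant, with a median log2 difference of 0.08. The highest pool of this list, mutant pool 2, was also the highest for Dll4 probe set 1421826_at. Probe set 1421827_at was instead highest in wild-type pool 1, at 1.059, the pool with the lowest median of this list. The part of the endothelial share in the Dll4 values was not tested.

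Jag1 encodes a Jagged ligand that acts in vessels, the inner ear and the heart, among other tissues. It had the largest differences after Dll3, both toward lower values in the mutant, and neither passed the test. Probe set 1421105_at gave 1.140, 1.068 and 0.960 across wild-type pools 1 to 3 and 0.927, 1.040 and 0.766 in the mutant pools. Mutant pools 1 and 3 lay below every wild-type pool, and mutant pool 2 lay among them. The log2 difference was -0.22 (95% interval -0.53 to 0.09), and it was -0.10 without mutant pool 3.

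Probe set 1421106_at of Jag1 gave 0.916, 1.109 and 1.314 across wild-type pools 1 to 3 and 0.961, 1.039 and 0.955 in the mutant pools. Wild-type pool 3 was high and wild-type pool 1 was the lowest of all 6, the reverse of their order in the other Jag1 probe set. The log2 difference was -0.16 (95% interval -0.48 to 0.16), of which -0.03 was left without wild-type pool 3. The mean of both probe sets gave a log2 difference of -0.19 for the gene, with overlapping genotypes.

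Jag2 encodes the other Jagged ligand, known from limb ectoderm, palate and thymus. Probe set 1426430_at gave 1.044, 1.009 and 0.798 across wild-type pools 1 to 3 and 0.991, 1.027 and 0.953 in the mutant pools. Wild-type pool 3 alone was low, and the log2 difference turned from 0.07 to -0.05 without it. Probe set 1426431_at lay between 0.945 and 1.079 in all 6 pools, with a log2 difference of -0.02 (95% interval -0.27 to 0.22). The probe sets of Jag2 thus had opposite signs, both close to 0.

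Among the receptors, Notch1 is the one required for segmentation of the presomitic mesoderm. Probe set 1418633_at gave 1.176, 1.022 and 0.915 across wild-type pools 1 to 3 and 0.978, 1.043 and 0.953 in the mutant pools. The mutant pools all lay inside the wild-type range. Probe set 1418634_at gave 0.955, 1.043 and 1.149 among the wild-type pools and 0.888, 1.092 and 0.957 in the mutant, so here wild-type pool 3 was the highest pool instead of the lowest. The log2 differences were -0.06 and -0.10, and the gene mean of both probe sets gave -0.08.

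Notch2 is a broadly expressed receptor. Its probe set 1451889_at gave 1.168, 1.002 and 0.820 across wild-type pools 1 to 3 and 0.998, 1.018 and 0.964 in the mutant pools. The mutant pools lay inside the wild-type range, and the log2 difference was 0.01 (95% interval -0.30 to 0.32). Probe set 1455556_at gave 0.952, 0.898 and 1.211 among the wild-type pools and 1.048, 1.288 and 0.845 in the mutant. Mutant pools 2 and 3 were the highest and the lowest of the 6, and the log2 difference of 0.05 became -0.10 without the former and 0.20 without the latter.

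Notch3 is the receptor of vascular smooth muscle. Probe set 1421964_at gave 1.056, 0.850 and 1.003 across wild-type pools 1 to 3 and 1.355, 0.871 and 0.997 in the mutant pools. Mutant pool 1 alone was high, and the log2 difference of 0.13, the highest of the members, became -0.05 without it. Probe set 1421965_s_at gave 1.039, 0.973 and 1.267 among the wild-type pools and 0.969, 0.945 and 1.027 in the mutant. Here wild-type pool 3 alone was high, and the log2 difference of -0.15 became -0.04 without it.

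Heart muscle markers were high in the same mutant pool 1, with a pool median of 1.62 on the log2 scale for 25 probe sets of 16 genes and -0.21 to 0.00 in the other 5 pools. Smooth muscle and matrix markers, 13 probe sets of 8 genes, had medians of -0.20, -0.10 and -0.20 among the wild-type pools and 0.15, 0.13 and 0.09 in the mutant. By sign 12 of the 13 probe sets were higher and 1 lower in the mutant, with a median log2 difference of 0.37. The genotypes did not overlap in the medians of that list, and they overlapped for both Notch3 and both Jag1 probe sets. The part of muscle and matrix tissue in the Notch3 and Jag1 values was not tested.

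Notch4 is a receptor found mainly in endothelium. Probe set 1449146_at gave 0.806, 1.028 and 1.361 across wild-type pools 1 to 3 and 0.985, 1.015 and 0.824 in the mutant pools. It had the widest spread within genotypes of the 15 probe sets, from the lowest to the highest value of all 6 pools within the wild type. The log2 difference of -0.15 became 0.04 without wild-type pool 3. Probe set 1456263_at gave 1.148, 0.971 and 0.930 among the wild-type pools and 1.210, 1.029 and 0.805 in the mutant, with a log2 difference of -0.02 (95% interval -0.38 to 0.35).

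**Figure D3:**
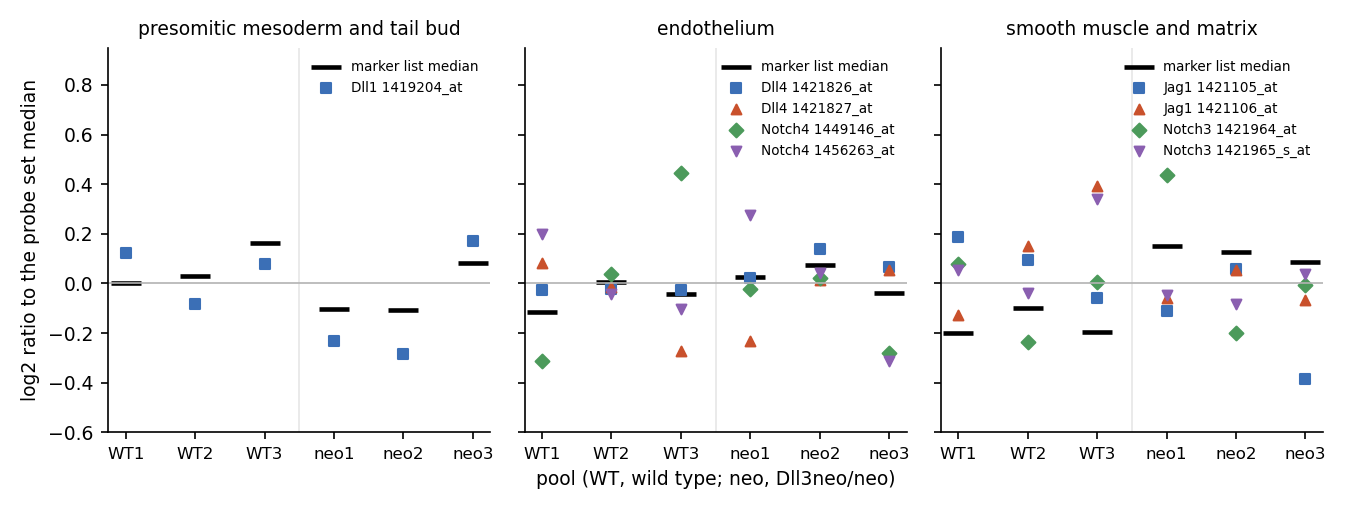
Log2 ratio in each pool of probe sets of Dll1, Dll4, Notch4, Jag1 and Notch3 (coloured symbols) beside the median of a marker list (black bars) for presomitic mesoderm and tail bud, endothelium, and smooth muscle and matrix. The smooth muscle and matrix medians are -0.20 to -0.10 among the wild-type pools and 0.09 to 0.15 in the mutant. Each gene plotted beside them has overlapping genotypes.

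How far a pool's value can be trusted for these genes shows in the 7 genes with 2 probe sets. The root mean square difference between the log2 ratios of both probe sets, over the 6 pools, ran from 0.16 in Dll4 to 0.33 in Notch4, with a median of 0.26. Over the 3057 genes of the array with 2 probe sets the median was 0.20. Both probe sets had the same sign of genotype difference in 5 of the 7 genes, all but Jag2 and Notch3, and in 57.5% of the 3057. For 4 of the 7 genes this root mean square was larger than 0.22, the largest of the 15 genotype differences in size. The root mean square is over single pools and 0.22 is a difference of genotype means, so they are unlike measures.

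Wild-type pool 3 held the highest or the lowest value of 8 of the 15 probe sets and wild-type pool 1 also of 8, while wild-type pool 2 held it for 1. Over the whole array, Dll3 left out, these shares were 63.5%, 40.0% and 15.7% of probe sets. For the Notch genes, as for all probe sets, wild-type pools 1 and 3 held an extreme more often than wild-type pool 2. The pooled SD of log2 ratios within genotypes had a median of 0.18 over the 15 probe sets, beside 0.16 over all probe sets. That SD describes single pools and is not the error of a difference between genotype means. The median size of the genotype differences was 0.10 over the 15, beside 0.073 over all probe sets.

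The probe sets whose 6 values lay closest to those of Dll3 were found by the root mean square difference of log2 ratios over the 6 pools, a description chosen by these same values. Both probe sets of Nrarp, a target of Notch and feedback inhibitor of it, came first, at 0.57 for 1417985_at and 0.60 for 1417986_at. Gmfb followed at 0.60 and Lin7c, a scaffold gene of cell junctions, at 0.61. The median over all other probe sets was 0.92. The closest one, 1417985_at, had ratios of 1.169, 1.169 and 1.301 in the wild-type pools and 0.831, 0.698 and 0.788 in the mutant pools 1, 2 and 3. It kept the gap between genotypes but with a much smaller step than Dll3, a log2 difference of -0.65 (limma adjusted p = 0.9999). None of the other ligands or receptors was among the 5 closest probe sets. This adds nothing to their own differences of -0.22 to 0.13, because the distance is set largely by the genotype step of Dll3.

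The rest of the pathway was compared in 6 lists of genes by role. Of 75 listed genes that are not ligands or receptors of the canonical set, 62 were measured by 107 probe sets. None passed in either direction in limma, while 5 reached an unadjusted p under 0.05, or 4.67%, beside 1.16% of all probe sets. Of these 5, 3 were in the target list, both Nrarp probe sets among them, and the others were of Dlk1 and Dtx3. By sign 44 of the 107 were higher and 63 lower in the mutant, with a median log2 difference of -0.01. The genotypes did not overlap for 9 of the 107, or 8.41%, beside 5.03% of all probe sets. The lists were chosen with earlier results of these data known, so these shares are a description and no independent support.

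Ligands outside the canonical set, 10 of 10 genes by 19 probe sets, had 12 higher and 7 lower, with a median log2 difference of 0.03. Dlk1, a Delta-like membrane protein without the receptor-binding domain of true ligands, had ratios of 0.762, 0.814 and 0.914 across wild-type pools 1 to 3. Its ratios were 1.264, 1.117 and 1.086 in the mutant pools, above all wild-type pools, by a log2 difference of 0.48 (limma adjusted p = 0.9999). Ccn3, a secreted matrix protein reported to bind Notch1, had the lowest difference of the list at -0.13 for probe set 1426851_a_at and 0.01 for its other probe set.

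Fringe and O-glycosylation genes, which modify the sugars on Notch, had 2 probe sets higher and 8 lower over 6 of 9 listed genes, with a median of -0.11. Lfng, the fringe enzyme of the segmentation clock, had ratios of 1.006, 1.215 and 1.111 among the wild-type pools and 0.993, 0.776 and 0.994 in the mutant by probe set 1449943_at. These did not overlap, though mutant pools 1 and 3 lay just below wild-type pool 1, and the log2 differences of its probe sets were -0.28 and -0.27. Rfng, a related fringe gene, was the highest of the list at 0.13 by 1460704_at and had -0.02 by its other probe set.

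The proteases that cut Notch or its ligands had 5 probe sets higher and 9 lower over 7 of 10 listed genes, with a median of -0.0060. Aph1a, a subunit of the gamma-secretase complex that makes the final cut, gave 0.23 by 1451554_a_at without overlap, and 0.07 and -0.25 by its other probe sets. Adam10, the sheddase of Notch, gave -0.38 by 1450105_at, where mutant pool 2 alone was low at 0.555, and -0.03 and -0.21 by its other probe sets.

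Genes for endocytosis and ubiquitin transfer had 10 probe sets higher and 13 lower over 12 of 14 listed genes, with a median of -0.02. Dtx3, a Deltex family gene, gave 0.967, 0.923 and 0.817 among the wild-type pools and 1.184, 1.033 and 1.111 in the mutant, without overlap and with a log2 difference of 0.30 (limma adjusted p = 0.9999). Itch, a ubiquitin ligase, gave -0.18. Genes of the nuclear complex had 7 higher and 11 lower over 12 of 16 listed genes, with a median of -0.02 and a range of -0.31 to 0.19. Spen, a co-repressor, gave 0.19, and Fbxw7, which marks the active receptor for breakdown, gave -0.25 and, by its other probe set, 0.14. These lists had members on both sides of 0 and medians near that of all probe sets.

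The target genes, 18 of 19 listed by 27 probe sets, Lfng and Dll1 among them, had 9 higher and 18 lower, with a median of -0.07. An unadjusted p under 0.05 in limma was reached by 3 of the 27, or 11.1%, all lower, beside 1.16% of all probe sets in either direction. The genotypes did not overlap for 4 of the 27, all lower, both Nrarp probe sets among them. Of all 22626 probe sets, 450 were lower and 689 higher without overlap, 5.03% together. This list too was chosen with earlier results of these data known. Nrarp gave the smallest p of the list by 1417985_at, and its other probe set had ratios of 1.080, 1.241 and 1.394 among the wild-type pools and 0.843, 0.672 and 0.920 in the mutant. Both probe sets were lower in every mutant pool than in any wild-type pool. The highest by p, Il2ra, was at 0.07.

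**Figure D4:**
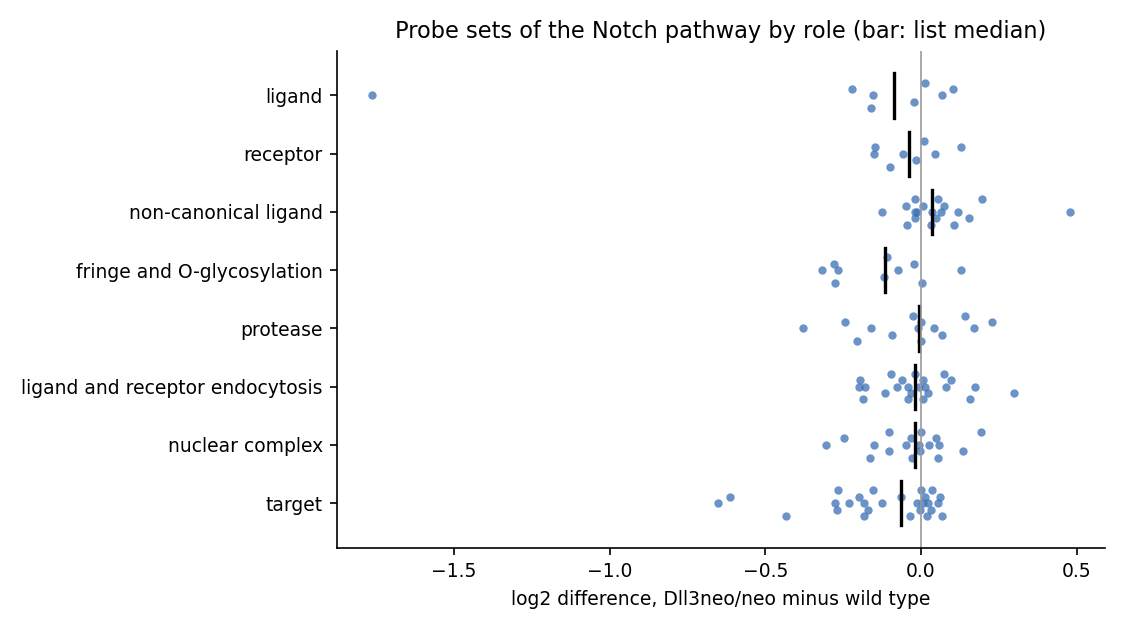
Log2 difference, Dll3neo/neo minus wild type, of every probe set in 8 lists of the Notch pathway by role, with a bar at each list's median. The Dll3 point at -1.76 stands alone at the left, the 2 Nrarp points lead the targets at -0.65 and -0.61, and the list medians lie between -0.11 and 0.03.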

How the data were processed

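The authors deposited 1 table of linear ratios, with 22690 probe sets on 6 arrays. The values show that the divisor was the probe set's median across the arrays in most cases. Among those tested, 92.8% have a median ratio of 1 (tolerance 0.0011), as do all 16 probe sets of the Notch genes. The other 1640 have a median below 1, both Ccn3 probe sets among them, and their divisor is not known. Per the submitters' processing notes RMA and MAS5 were involved, in roles those notes do not give here, so background correction and scaling between arrays are unknown. The 64 control probe sets were left out.

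Genotypes were compared on log2 of the ratio, with no offset, using lmFit and eBayes of limma 3.58.1 (R 4.3.3, two-sided), with Benjamini-Hochberg adjustment over 22626 probe sets and a threshold of 0.05. The fit was tested on simulated data. The within-pool comparison of Dll1 and Dll3 used an exact permutation test (scipy 1.17.1, Python 3.11.15), and plots used matplotlib 3.10.9. Symbols were brought up to date by Entrez ID through RefSeq (GRCm38.p6).

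Lists used every probe set of a gene. Named genes were the members, the 5 nearest profiles to Dll3 (1 of them is not reported here), and the gene with the smallest p per list and direction. Members and lists were chosen with earlier results of these data known. Alternatives were 2 scalings, 2 offsets, 2 filters on the ratios, 1 on probe set class, 2 variance models, a block for the replicate number, and sets of 5 pools. The filters on the ratios left out medians below 1 or the lowest 20% by mean log2 ratio, and neither is a filter on absolute signal.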

Additional observations from a re-analysis of the deposited data

How the results depend on the processing

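The 1 probe set called became 2 with quantile normalization (Hnrnpl added), 4 with array weights (Hnrnpl, Bcat2 and Nrarp added) and 0 with the 20% of probe sets with the lowest mean log2 ratio left out, a filter that removes Dll3 itself. Leaving out 1 pool gave 0 to 1. The Dll3 log2 difference was -1.87 to -1.64 over those 6 sets, and its call was lost in 4 of them. It was -2.38 with quantile normalization and -0.85 with log2(value + 1), where the call stayed. The Dll1 minus Dll3 shift was 1.502 to 1.752 with 1 pool left out, 2.27 with quantile normalization and 0.77 with log2(value + 1). The median of the other ligands was -0.15 with that filter, which keeps 5 of 7 probe sets, and -0.074 to -0.013 with 1 pool left out. The receptor median was -0.10 to 0.019 with 1 pool left out.

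None of the 15 other probe sets was called under any alternative (smallest limma adjusted p = 0.251), and 5 kept their sign in all: Dll1, Dll4 1421826_at, both of Jag1 and Notch1 1418634_at. With array weights, where wild-type pool 2 had a weight of 83.9 and the other 5 pools 0.137 to 0.756, the sign turned for Dll4 1421827_at (-0.027), Jag2 1426430_at (-0.023) and 1426431_at (0.023), Notch2 1451889_at (-0.011), Notch3 1421965_s_at (0.0051) and Notch4 1456263_at (0.035). With quantile normalization it turned for Dll4 1421827_at (-0.022) and Notch2 1451889_at (-0.039). With 1 pool left out the log2 difference ran from -0.089 to 0.10 for Dll4 1421827_at, -0.052 to 0.14 for Jag2 1426430_at, -0.074 to 0.022 for 1426431_at, -0.15 to 0.035 for Notch1 1418633_at, -0.12 to 0.13 for Notch2 1451889_at, -0.10 to 0.20 for 1455556_at, -0.051 to 0.27 for Notch3 1421964_at, -0.34 to 0.042 for Notch4 1449146_at and -0.15 to 0.14 for 1456263_at. The cause was not tested.

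With the replicate number as a block, Dll3 stayed called (log2 difference -1.76, limma adjusted p = 0.00713) and the count of calls stayed at 1. The deviations of same-numbered pools 1 to 3 correlated at 0.21, 0.02 and 0.17 over all probe sets. Those of differently numbered pools correlated at -0.21 to 0.08, below the values of numbers 1 and 3. The main fit did not use the numbers, and whether they mark a shared batch was not tested.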
